A study of Caenorhabditis elegans with 12 samples.

Results

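Nematodes have no canonical Hedgehog ligand and no Smoothened, the membrane protein that relays the Hedgehog signal in flies and vertebrates. The worm instead carries large families of hedgehog-related secreted proteins: warthog (wrt), groundhog (grd), ground-like (grl), quahog (qua-1) and the hog-only gene hog-1. It also carries many membrane proteins related to Patched, the Hedgehog receptor: the patched genes themselves (here ptc-1 and ptc-3) and the patched-related (ptr) genes. Warthog, groundhog and quahog proteins can carry a C-terminal Hog domain, which in Hedgehog cleaves the protein and attaches cholesterol. Patched proteins carry a sterol-sensing domain. In the worm both families are best known from the epidermis and its derivatives, where several members are needed for moulting and for the apical matrix that precedes the cuticle, while some patched proteins act in the germline.

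The genes described here are the rows of the deposited gene table whose names are wrt, grd, grl, hog, qua, ptr or ptc followed by a number. There were 80 of them among 24238 genes: 10 wrt, 16 grd, 27 grl, 1 hog, 1 qua, 23 ptr and 2 ptc. The first 5 families, 55 genes, are called hedgehog-related below, and the ptr and ptc genes, 25 in all, patched-related. Of the 80, 38 had a mean of at least 1 FPKM (fragments scaled by transcript length and library size) over all libraries and were tested. The other 42 lay below that level and are accounted for after the tested ones. The tested member with the lowest mean was ptr-6 with 1.28 FPKM, and the untested member with the highest mean was ptr-1 with 0.919 FPKM.

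The RNA came from intact Caenorhabditis elegans of N2, the standard wild type, exposed for 4 days to tetrathiomolybdate (TM), which chelates copper, or to dimethyl sulfoxide (DMSO) as the control. Each group had 6 poly(A) RNA libraries, of the same strain and with no transgene or mutation named. Stage, dose and culture are not among the labels. Each p-value therefore rests on variation among the libraries alone, part of which may be technical. In RNA of whole animals, fewer cells of a type and less RNA per cell cannot be told apart.

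Total counts per library ran from 61432401 to 67068328. DMSO replicate 6 lay nearest to the TM libraries on the first principal component, and TM replicate 5 stood apart on the second. Several results that rest on either, but not all of them, are given without it too. Every marker of the epidermis, seam, glia, muscle, pharynx, intestine, neurons, oocytes, sperm and early embryo lists had counts in at least 1 library. Some were near 0, and only 3 of 8 glia and 3 of 8 early embryo markers reached a mean of 1 FPKM. Reads of members that overlap another gene cannot be assigned with certainty, because it is not given whether the counting used strand. By exon overlap in WBcel235 this touched 27 members with a gene on the opposite strand, among them wrt-2, grl-10, grl-15 and hog-1, and 5 members with one on the same strand. Levels below are FPKM, which are corrected for length. Changes are log2 changes of counts, TM over DMSO, ± SE, with p from the quasi-likelihood test of edgeR, adjusted over all tested genes and held to a threshold of 0.05.

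The comparison asks how giving TM changed the RNA of these families. Hedgehog-related genes of every family were higher in TM. Among the tested members the ground-like family had the highest median change, which was not so once members with lower levels were included, as given below. Most patched-related genes were higher too, by smaller factors. The 2 most abundant members, the receptor genes ptc-1 and ptr-2, went the other way and were slightly lower in TM. Of the 38 tested members 32 rose and 2 fell. Over all 11535 tested genes 39.8% were called, 23.7% higher and 16% lower. Of the 38, 18 rose with a log2 change of at least 1 and 12 with one of at least 2, against 9.11% and 5.27% of all tested genes. The median log2 change of the tested members was 0.90, and that of all tested genes was -0.01. The 6 TM values lay all above the 6 DMSO values in 28 of the 38, and all below in 1, against 16.1% and 6.41% of all tested genes, or 22.5% in either direction. Of the 38, 8 had a DMSO mean under 1 FPKM and passed the level filter through their TM libraries. They were wrt-6, grd-6, grl-15, grl-21, hog-1, qua-1 and 2 ptr genes, 1 of them ptr-4. The genes named here are all among the 12 members with a log2 change of at least 2. The share of such members is therefore not independent of the level filter. The rest of the 12, wrt-1, grd-14, grl-5, grl-7 and grl-16, had DMSO means of at least 1 FPKM. With limma on quantile-normalized log2(FPKM + 1) values 23 of the 38 members rose and 2 fell, against 1933 and 2945 of the 11535 genes. In that setting 39.6% of the calls over all genes were higher, against 59.7% in the count model.

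**Figure D1:**
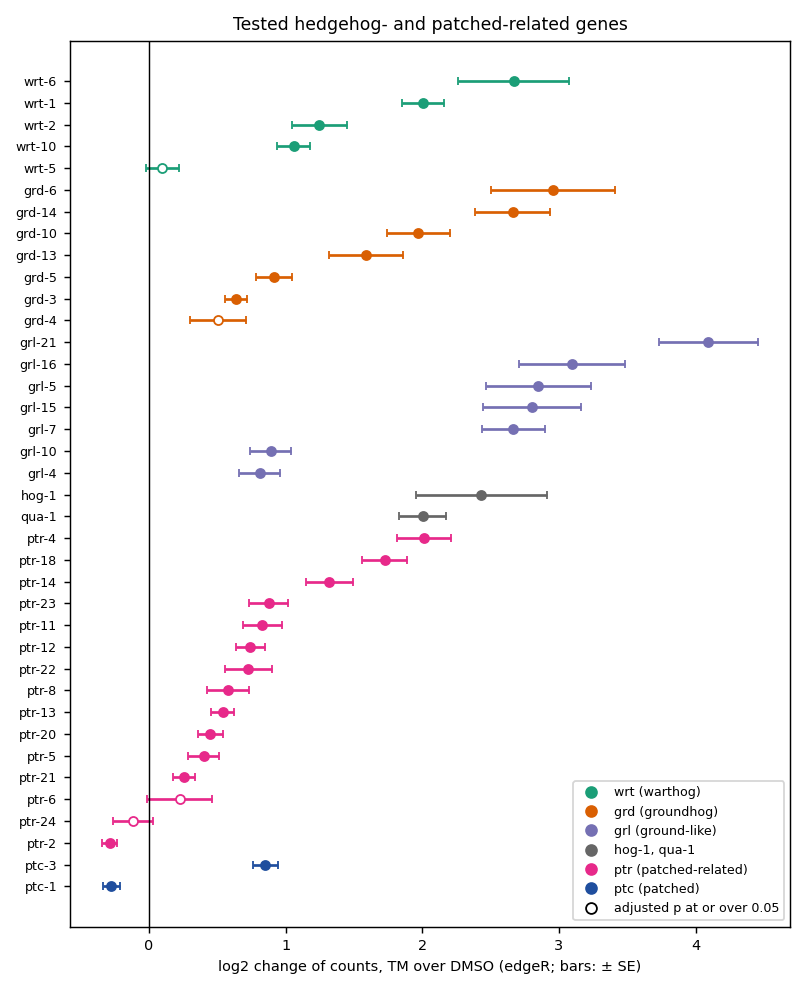
Log2 change of counts, TM over DMSO, with its SE, for the 38 tested members in family order from wrt at the top to ptc at the bottom. Filled points passed an adjusted p of 0.05, and open points did not. All tested hedgehog-related genes lie right of 0, grl-21 farthest at 4.09, while ptr-2 and ptc-1 lie left of it at -0.29 and -0.28.

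Of the 10 warthog genes 5 were tested, 4 rose and 0 fell, with a median log2 change of 1.25. The gene wrt-1 (chromosome II, 7530996 to 7533246, plus strand in WBcel235) had 3.05 to 5.30 FPKM in TM libraries, with a median of 4.18, and 0.834 to 1.17 FPKM in DMSO libraries, with a median of 1.03. The groups did not overlap, and the change was 2.01 ± 0.15 (adjusted p = 1.30e-06). The gene wrt-6 (chromosome X, 3480250 to 3483666, plus strand) had 1.75 to 2.72 FPKM in TM libraries, with a median of 2.51, and 0.101 to 0.953 FPKM in DMSO libraries, with a median of 0.286. Its groups did not overlap either, but DMSO replicate 6 held the top DMSO value and the other DMSO libraries reached 0.349. The change of wrt-6 was 2.67 ± 0.41 (adjusted p = 0.000147) with all libraries and 3.28 without DMSO replicate 6.

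The gene wrt-10 (chromosome II, 7533262 to 7534563, minus strand) was the most abundant warthog gene in TM, with 9.46 to 11.8 FPKM and a median of 10.3 in TM libraries and 3.59 to 5.81 FPKM, median 5.07, in DMSO libraries. Every TM library lay above every DMSO library (log2 change 1.06 ± 0.12, adjusted p = 1.28e-05). The seam and epidermis gene wrt-2 had 1.69 to 3.82 FPKM in TM libraries, median 2.60, and 0.869 to 1.43 FPKM in DMSO libraries, median 1.10. It rose with no overlap (log2 change 1.25 ± 0.20, adjusted p = 0.000243), and an opposite-strand gene, pccb-1, overlaps its exons. The gene wrt-5, which is needed in embryonic development, was the exception, with 7.04 to 9.70 FPKM in TM libraries, median 8.18, and 6.69 to 8.63 FPKM in DMSO libraries, median 7.55. These ranges overlap over most of their length, and the change did not pass (log2 change 0.10 ± 0.12, adjusted p = 0.535).

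**Figure D2:**
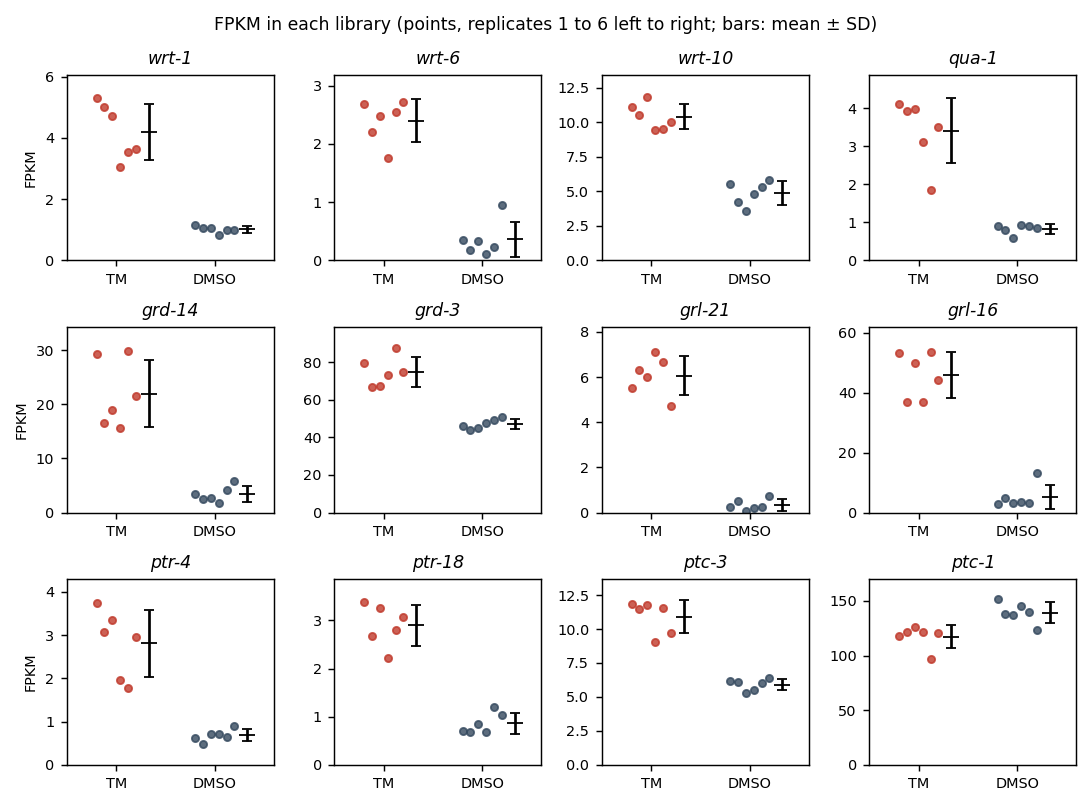
FPKM of 12 members in each of the 6 TM libraries (left) and 6 DMSO libraries (right), each panel on its own axis from 0, with the mean and SD beside the points. The groups are apart in all panels but ptc-1, where TM replicate 5 at 97.0 lies lowest and DMSO replicate 6 at 123 lies within the TM range. DMSO replicate 6 is the highest DMSO point for wrt-6, wrt-10, grd-14, grd-3, grl-21 and grl-16, among others.

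Of the 16 groundhog genes 7 were tested, 6 rose and 0 fell, with a median log2 change of 1.59. The family held the most abundant hedgehog-related genes, grd-3 (chromosome IV, 3439655 to 3440453, plus strand) and grd-5 (chromosome V, 8619032 to 8619870, plus strand). The gene grd-3 had 66.7 to 87.6 FPKM in TM libraries, median 73.8, and 44.0 to 50.9 FPKM in DMSO libraries, median 46.8. The groups did not overlap, and the change of 0.64 ± 0.08 was the smallest among the groundhog genes that passed (adjusted p = 3.38e-05). The gene grd-5 had 57.5 to 96.4 FPKM in TM libraries, median 72.8, and 34.7 to 47.9 FPKM in DMSO libraries, median 37.7. Its groups did not overlap either (log2 change 0.91 ± 0.13, adjusted p = 8.23e-05).

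The gene grd-14 (chromosome X, 8500021 to 8501037, plus strand) changed much more. It had 15.7 to 29.8 FPKM in TM libraries, median 20.2, and 1.77 to 5.78 FPKM in DMSO libraries, median 3.05, a 6.32-fold difference in the count model. The highest DMSO value was that of replicate 6 and still lay below the lowest TM value (log2 change 2.66 ± 0.28, adjusted p = 7.09e-06). The gene grd-10 (chromosome IV, 3441055 to 3441841, plus strand), whose promoter is used to mark seam cells, had 3.59 to 5.18 FPKM in TM libraries, median 4.42, and 0.710 to 1.63 FPKM in DMSO libraries, median 1.005. It rose with no overlap (log2 change 1.97 ± 0.23, adjusted p = 1.71e-05). The other members that rose were grd-6 and grd-13, with changes of 2.96 and 1.59. For grd-6 the top DMSO value, 0.815 FPKM, was that of replicate 6, and without that library its change was 3.66. For grd-4 the ranges of 1.55 to 2.09 FPKM in TM libraries and 0.782 to 1.79 FPKM in DMSO libraries overlapped, and it did not pass (log2 change 0.51 ± 0.21, adjusted p = 0.0637). Without DMSO replicate 6 it did (log2 change 0.66, adjusted p = 0.0150).

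The ground-like proteins lack a Hog domain. Of these 27 genes 7 were tested, all 7 rose, and in all 7 the TM values lay above the DMSO values, with a median log2 change of 2.81. The largest change among all tested members was that of grl-21 (chromosome IV, 10737474 to 10738191, plus strand). It had 4.72 to 7.13 FPKM in TM libraries, median 6.15, and 0.0692 to 0.751 FPKM in DMSO libraries, median 0.240. The change was 4.09 ± 0.36 (adjusted p = 2.47e-06), and 4.52 without DMSO replicate 6, which held the top DMSO value. The most abundant ground-like gene in TM was grl-16 (chromosome I, 572173 to 575120, minus strand). It had 36.8 to 53.7 FPKM in TM libraries, median 47.0, and 2.76 to 13.4 FPKM in DMSO libraries, median 3.34. DMSO replicate 6 again stood highest, with the other DMSO libraries at 2.76 to 4.99 FPKM. The change of grl-16 was 3.09 ± 0.39 (adjusted p = 3.51e-05), and 3.68 without that library.

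The gene grl-7 (chromosome V, 11344828 to 11347012, minus strand) encodes an apical matrix protein that is cleared with the help of PTR-18, described below. It had 8.36 to 16.1 FPKM in TM libraries, median 12.4, and 1.37 to 3.11 FPKM in DMSO libraries, median 1.66. The groups did not overlap (log2 change 2.67 ± 0.23, adjusted p = 2.23e-06). The gene grl-15 had 2.66 to 3.94 FPKM in TM libraries, median 3.30, and 0.132 to 0.989 FPKM in DMSO libraries, median 0.395. It rose with no overlap (log2 change 2.81 ± 0.36, adjusted p = 3.36e-05), and an opposite-strand gene overlaps its exons. DMSO replicate 6 held its top DMSO value, and without that library the change of grl-15 was 3.24. The gene grl-4, second in level within the family, had 15.7 to 26.2 FPKM in TM libraries, median 19.2, and 8.29 to 13.9 FPKM in DMSO libraries, median 11.6. Its change was smaller, with no overlap (log2 change 0.81 ± 0.15, adjusted p = 0.000691). The remaining 2, grl-5 and grl-10, changed by 2.85 and 0.89. For grl-5 the top DMSO value, 3.74 FPKM, was that of replicate 6, and without that library its change was 3.47.

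The single quahog gene qua-1 (chromosome II, 8198803 to 8204004, plus strand), which is needed for moulting, had 1.85 to 4.09 FPKM in TM libraries, median 3.71, and 0.591 to 0.923 FPKM in DMSO libraries, median 0.879. The lowest TM value was that of replicate 5, with the other TM libraries at 3.11 or above, and no TM value reached down to the DMSO range. The change was 2.004 ± 0.17 (adjusted p = 2.21e-06). The gene hog-1 (chromosome X, 5851953 to 5854263, minus strand), which is known for a Hog domain without the N-terminal domains of the other families, had 1.92 to 2.84 FPKM in TM libraries, median 2.25, and 0 to 0.795 FPKM in DMSO libraries, median 0.383. It rose (log2 change 2.43 ± 0.48, adjusted p = 0.00111), and opposite-strand genes overlap its exons. Summed over the 55 hedgehog-related genes, the level was 333 ± 41.4 FPKM in TM libraries and 137 ± 19.2 FPKM in DMSO libraries (SD, n = 6 each). The genes grd-3 and grd-5 made up 45.0% ± 2.74 of that sum in TM libraries and 63.0% ± 3.45 in DMSO libraries.

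**Figure D3:**
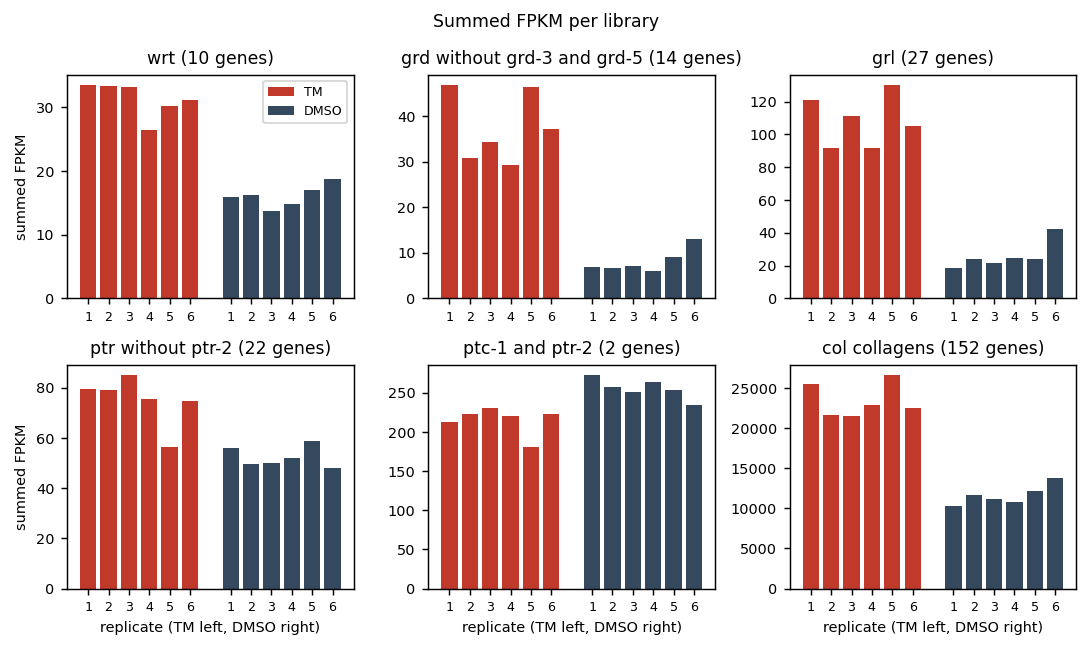
Summed FPKM per library, TM replicates 1 to 6 left and DMSO replicates 1 to 6 right, for 4 families or parts of families, for ptc-1 with ptr-2, and for 152 numbered col collagens, each axis from 0. The wrt, grd and grl sums are higher in every TM library than in any DMSO library, while the sum of ptr genes without ptr-2 in TM replicate 5, 56.4, lies within the DMSO range of 48.1 to 58.9.

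The patched-related receptors varied more in direction. Of 23 ptr genes 15 were tested, 12 rose and 1 fell, with a median log2 change of 0.58. The number that rose was 3 (ptr-4, ptr-14 and ptr-18) with limma on quantile-normalized values, and 12 with length correction of the counts. The gene ptr-4 (chromosome X, 6060758 to 6065986, minus strand), which acts in assembly of the precuticle, had 1.79 to 3.75 FPKM in TM libraries, median 3.02, and 0.476 to 0.898 FPKM in DMSO libraries, median 0.680. The groups did not overlap, and this was the largest change among the tested receptors (log2 change 2.01 ± 0.20, adjusted p = 4.71e-06). Its DMSO values all lay under 1 FPKM, so ptr-4 passed the level filter through its TM libraries. With a filter of a mean of at least 10 counts instead, the largest receptor change was 2.42, that of ptr-16. The gene ptr-18 (chromosome II, 12965546 to 12978171, plus strand), which clears GRL-7, had 2.22 to 3.38 FPKM in TM libraries, median 2.94, and 0.685 to 1.21 FPKM in DMSO libraries, median 0.770. It too rose with no overlap (log2 change 1.72 ± 0.16, adjusted p = 3.61e-06).

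The gene ptr-14 had 2.91 to 5.74 FPKM in TM libraries, median 3.68, and 1.05 to 2.10 FPKM in DMSO libraries, median 1.53, with no overlap (log2 change 1.32 ± 0.17, adjusted p = 3.89e-05). The gene ptr-12 had a narrow range in both groups, 1.68 to 2.15 FPKM in TM libraries, median 1.88, and 0.989 to 1.21 FPKM in DMSO libraries, median 1.10. It rose (log2 change 0.74 ± 0.11, adjusted p = 9.29e-05), but not with limma on quantile-normalized values (adjusted p = 0.856, the highest of its alternatives). The other 8 ptr genes that rose changed by 0.25 (ptr-21) to 0.88 (ptr-23). The genes ptr-6 and ptr-24 did not pass. For ptr-24 the range was 8.74 to 19.7 FPKM in TM libraries, median 16.1, and 12.5 to 18.7 FPKM in DMSO libraries, median 16.6. TM replicate 5 and DMSO replicate 6 were the lowest of their groups (log2 change -0.12 ± 0.15, adjusted p = 0.536).

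TM replicate 5 held the lowest TM value in 11 of the 15 tested ptr genes and in 1 of the 21 tested hedgehog-related genes. It held the lowest TM value in 42.6% of all tested genes and in 75.8% of those with at least 2500 bases of exon. The tested ptr genes had 2728 to 3532 bases of exon. The slope of log2 CPM on log2 exon length was -0.26 in that library, between -0.06 and 0.02 in the other TM libraries, and between -0.09 and 0.17 in the DMSO libraries. Without TM replicate 5 the median log2 change of the tested ptr genes was 0.68. DMSO replicate 6 held the highest DMSO value in 18 of the 21 tested hedgehog-related genes, against 40.6% of all genes called higher. The summed FPKM of the 55 hedgehog-related genes was 295 or above in the TM libraries, 175 in DMSO replicate 6 and at most 141 in the other DMSO libraries. Without DMSO replicate 6 the same 32 members and grd-4 rose, and the median log2 change of the 38 was 0.99.

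The 2 members that fell were also the 2 most abundant. The gene ptc-1 (chromosome II, 7893222 to 7900515, plus strand), a patched homologue needed for cytokinesis in the germline, had 97.0 to 126 FPKM in TM libraries, median 121, and 123 to 152 FPKM in DMSO libraries, median 139. The ranges overlapped through DMSO replicate 6, and the other DMSO libraries lay at 137 or above. The change was -0.28 ± 0.06 (adjusted p = 0.00246), and -0.29 without that library. The gene ptr-2 (chromosome I, 3789309 to 3792797, minus strand), which the deposited table annotates with mitotic cytokinesis, had 84.5 to 105 FPKM in TM libraries, median 100, and 112 to 121 FPKM in DMSO libraries, median 117. Every TM library lay below every DMSO library (log2 change -0.29 ± 0.05, adjusted p = 0.000812). Together ptc-1 and ptr-2 made up 34.0% ± 3.48 of the summed FPKM of the 80 genes in TM libraries and 56.7% ± 3.28 in DMSO libraries (SD, n = 6 each).

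The other patched gene, ptc-3 (chromosome II, 2845412 to 2852593, minus strand), which is essential and is known from osmoregulation and sterol transport, rose. It had 9.01 to 11.8 FPKM in TM libraries, median 11.5, and 5.27 to 6.39 FPKM in DMSO libraries, median 6.07. The groups did not overlap (log2 change 0.85 ± 0.09, adjusted p = 7.09e-06). The ratio of ptc-3 to ptc-1 on the log2 scale averaged -3.43 ± 0.24 in TM libraries and -4.56 ± 0.17 in DMSO libraries (SD, n = 6 each). The difference of 1.13 had a two-sided exact permutation p = 0.00216 and 0.00325 after Benjamini-Hochberg adjustment over 6 ratios, chosen after the values had been seen. The smallest p that 6 against 6 libraries allow is 0.00216.

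Germline, sperm and epidermis markers moved beside these genes, and their part in the changes was not tested. Of 10 oocyte and germline markers 7 fell and 0 rose, and their summed level was 2986 to 3426 FPKM in TM libraries and 3576 to 4090 FPKM in DMSO libraries. Their median log2 change was -0.32, beside -0.28 for ptc-1 and -0.29 for ptr-2. Of 10 epidermis markers 6 rose and 1 fell, with summed levels of 404 to 566 FPKM in TM libraries and 145 to 195 FPKM in DMSO libraries. Of the 6 that rose 5 encode cuticle collagens (dpy-7, rol-6, sqt-3, col-10 and dpy-13), with log2 changes of 1.41 to 3.74, and the other was the junction gene ajm-1 at 0.31. The transcription factor gene lin-26 fell (log2 change -0.16, adjusted p = 0.0245), while elt-3 at 0.22, vab-10 at 0.10 and elt-1 at -0.13 did not pass. Of 7 tested sperm markers all 7 rose, with summed levels of 53.3 to 77.7 FPKM over the 10 listed in TM libraries and 7.22 to 17.9 FPKM in DMSO libraries. Of 4 seam markers above 1 FPKM 0 rose and 1 fell, and of 3 such glia markers 0 were called. With the filter of 10 counts 1 of 7 seam markers rose (nhr-73, log2 change 2.78, adjusted p = 0.00720) and 1 fell, and 1 of 6 glia markers rose (daf-6, log2 change 1.55, adjusted p = 0.000116). The summed level of the 152 col collagens was 21552 to 26583 FPKM in TM libraries and 10308 to 13806 FPKM in DMSO libraries, with DMSO replicate 6 the highest of its group. All 8 body wall muscle and all 6 tested pharynx markers rose. Of 8 intestine markers 5 rose, of 8 neuron markers 3 rose and 1 fell, and of 3 tested early embryo markers 1 rose and 1 fell. The early embryo marker that rose, elt-7, is also 1 of the 5 intestine markers that rose. With the filter of 10 counts 3 of 8 intestine markers rose and 1 fell. Over all genes 23.7% rose and 16% fell with the filter of 1 FPKM, and 23.3% and 15.9% with that of 10 counts.

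**Figure D4:**
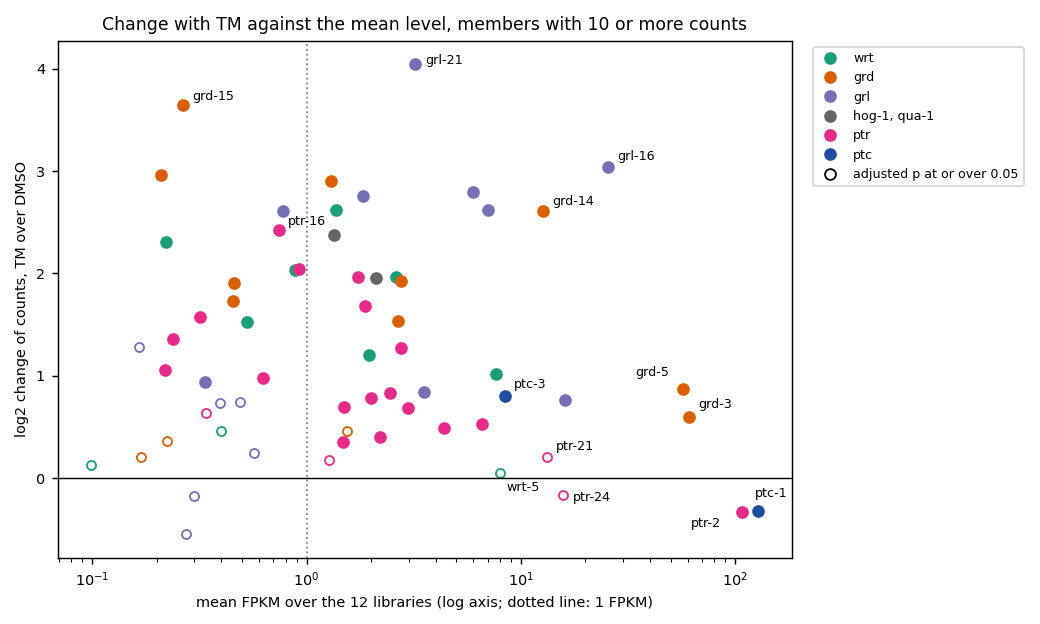
Log2 change of counts, TM over DMSO, against the mean FPKM over all 12 libraries (log axis) for the 64 members with a mean of at least 10 counts. Filled points passed an adjusted p of 0.05, and open points did not. The changes above 2 lie at mean levels up to that of grl-16, and the members with the highest levels, ptr-2 and ptc-1, lie below 0.

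The 42 members below 1 FPKM were examined with a filter of a mean of at least 10 counts, under which 15353 genes were tested, 39.3% of them called, 23.3% higher and 15.9% lower. Of the 42, 26 could then be tested, 15 rose and 0 fell, and 11 did not pass. The following were singled out after their values had been seen. The receptor ptr-16 had 0.863 to 1.64 FPKM in TM libraries and 0.108 to 0.435 FPKM in DMSO libraries (log2 change 2.42 ± 0.33, adjusted p = 5.79e-05). The receptor ptr-1 had 0.759 to 2.33 FPKM in TM libraries and 0.227 to 0.477 FPKM in DMSO libraries (log2 change 2.04 ± 0.25, adjusted p = 2.73e-05). The warthog gene wrt-4 had 1.13 to 1.68 FPKM in TM libraries and 0.173 to 0.674 FPKM in DMSO libraries (log2 change 2.03 ± 0.32, adjusted p = 0.000163). In all 3 the groups did not overlap. In the same fit ptr-21 no longer passed (adjusted p = 0.0624), so that 31 of the 32 members named as risen above were called again. Over all 64 members with enough counts 46 rose and 2 fell. The TM values lay all above the DMSO values in 38 of the 64 and all below in 1, against 17.5% and 4.90% of genes with enough counts, or 22.4% in either direction. With no filter 47 of the 80 rose and 2 fell, against 15.5% and 7.78% of 24238 genes, or 23.3% in either direction. The remaining 16 members, of which 12 were ground-like, averaged fewer than 10 counts a library. With no filter 1 of these 16 was called, grd-8, which had 0 to 12 counts in TM libraries and 0 in every DMSO library (adjusted p = 0.0442). For the other 15 a difference was not detectable at this depth.

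By family, this lower filter tested all 10 wrt genes and called 7 higher, tested 13 grd genes and called 10 higher, and tested 22 ptr genes and called 17 higher and 1 lower. For the ground-like family it tested 15 genes and called 9 higher. The median log2 change was then 0.94 for the ground-like genes, 1.36 for the warthog genes, 1.73 for the groundhog genes and 0.74 for the ptr genes. Among the ground-like genes that did not pass, grl-17 and grl-18 were singled out after their values had been seen, as the ground-like genes with a change below 0. The gene grl-18 had 0.228 FPKM on average in TM libraries and 0.318 FPKM in DMSO libraries, and grl-17 had 0.288 FPKM in TM libraries and 0.309 FPKM in DMSO libraries. Neither difference passed (adjusted p = 0.286 for grl-18 and 0.852 for grl-17).

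Several members lie next to each other in the genome, and such neighbours did not always change alike. The neighbours compared here and in the next paragraph were chosen after their values had been seen. Their small p-values are therefore not independent support for a difference. Other close neighbours, such as grl-8 with grl-9 and wrt-7 with wrt-8, were not compared, so how common such differences are was not tested. On chromosome IV, grd-13, grd-3 and grd-10 follow one another on the plus strand, with 148 bases between grd-13 and grd-3 and 602 between grd-3 and grd-10. The level of grd-13 averaged 4.03 ± 1.12 FPKM in TM libraries and 1.30 ± 0.451 FPKM in DMSO libraries (SD, n = 6 each). That of grd-3 averaged 74.8 ± 7.95 FPKM in TM libraries and 47.1 ± 2.62 FPKM in DMSO libraries, and that of grd-10 averaged 4.41 ± 0.735 FPKM in TM libraries and 1.09 ± 0.374 FPKM in DMSO libraries. The outer genes changed more than the middle one. The log2 ratio of grd-10 to grd-3 was higher in TM by 1.41 (two-sided exact permutation p = 0.00216, adjusted 0.00325) and that of grd-13 to grd-3 by 0.99 (exact permutation p = 0.00433, adjusted 0.00519). Between the outer genes the log2 ratio of grd-10 to grd-13 averaged 0.17 ± 0.53 in TM libraries and -0.25 ± 0.71 in DMSO libraries. That difference did not pass (exact permutation p = 0.284, and 0.039 without DMSO replicate 1).

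On chromosome X, grd-14 and grd-4 lie 185 bases apart on the same strand. The log2 ratio of grd-14 to grd-4 averaged 3.55 ± 0.54 in TM libraries and 1.38 ± 0.64 in DMSO libraries, with no overlap. The difference was 2.17 (exact permutation p = 0.00216, adjusted 0.00325). On chromosome II, wrt-1 and wrt-10 lie on opposite strands with 16 bases between the ends of their annotated spans. Their log2 ratio averaged -1.33 ± 0.23 in TM libraries and -2.25 ± 0.31 in DMSO libraries. That difference was 0.92 (exact permutation p = 0.00216, adjusted 0.00325), with wrt-1 changing more than its neighbour.

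**Figure D5:**
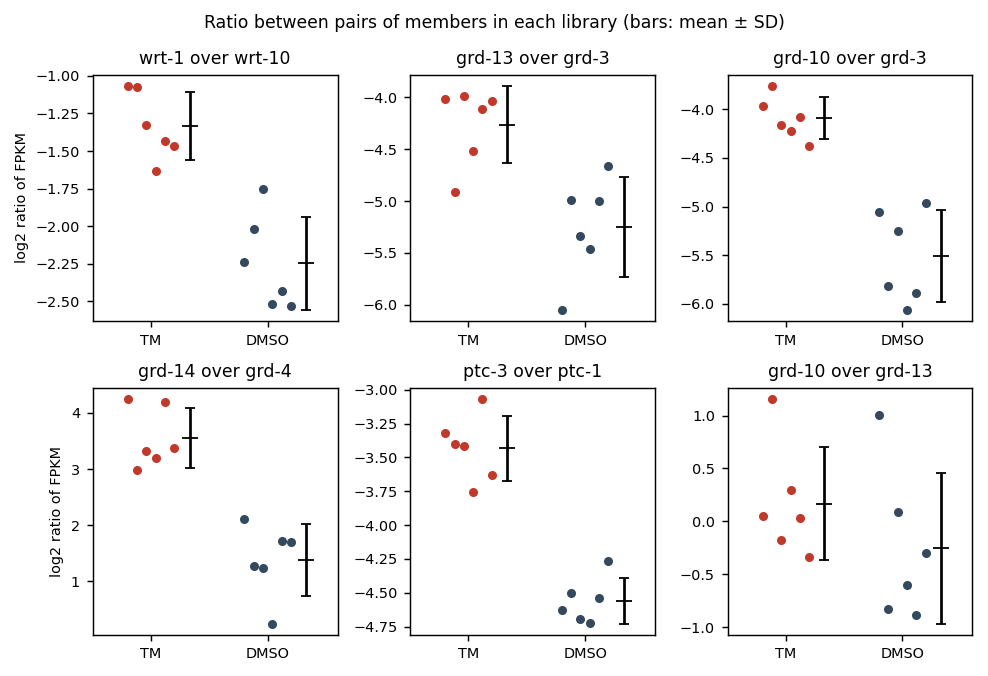
Log2 ratio of FPKM between 6 pairs of members in each TM library (left) and DMSO library (right), with mean and SD. The ratios of wrt-1 to wrt-10, grd-10 to grd-3, grd-14 to grd-4 and ptc-3 to ptc-1 are higher in every TM library than in any DMSO library, that of grd-13 to grd-3 overlaps in part, and that of grd-10 to grd-13 overlaps widely.

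Of 12 listed partners of these families 7 were tested, 2 rose and 0 fell, with a median log2 change of -0.01. Over all tested genes 23.7% rose and 16% fell. The list holds genes for lipid attachment, sterol transport, release and the GLI-type transcription factor, and outside these functions rib-1, rib-2 and vab-8. The acyltransferase gene hhat-1, a homologue of the enzyme that attaches fatty acid to Hedgehog in other animals, averaged 1.82 ± 0.343 FPKM in TM libraries and 0.497 ± 0.147 FPKM in DMSO libraries. Its lowest TM library, at 1.49 FPKM, lay above its highest DMSO library, at 0.652 FPKM (log2 change 1.82 ± 0.23, adjusted p = 2.66e-05). The sterol transporter gene ncr-1, of the Niemann-Pick type, averaged 8.46 ± 1.17 FPKM in TM libraries and 5.76 ± 0.934 FPKM in DMSO libraries (log2 change 0.52 ± 0.12, adjusted p = 0.00258). The GLI-type gene tra-1, which in the worm acts in sex determination, had 5.24 ± 0.530 FPKM in TM libraries and 4.97 ± 0.276 FPKM in DMSO libraries, and did not pass (log2 change 0.04 ± 0.08, adjusted p = 0.707). The other 4 tested partners, scp-1, rib-1, rib-2 and vab-8, did not pass with all libraries. Without DMSO replicate 6, scp-1 was lower (log2 change -0.52, adjusted p = 0.0336).

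The dispatched-related gene che-14 and the patched-related gene daf-6 lay below 1 FPKM. With the filter of 10 counts both rose. The gene daf-6, which shapes the channels of sensory glia, averaged 0.625 ± 0.166 FPKM in TM libraries and 0.199 ± 0.0583 FPKM in DMSO libraries (log2 change 1.55 ± 0.23, adjusted p = 0.000116). The gene che-14 averaged 0.725 ± 0.207 FPKM in TM libraries and 0.412 ± 0.0677 FPKM in DMSO libraries (log2 change 0.73 ± 0.20, adjusted p = 0.0111). In that fit 5 of the 12 partners rose, against 23.3% of all genes with enough counts.

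Of 20 listed regulators and proteins of moulting and the epidermis 18 were tested, 11 rose and 0 fell, with a median log2 change of 0.58. Of the 11, the moulting gene mlt-11 had the smallest p (log2 change 1.61 ± 0.11, adjusted p = 5.89e-07). Next came mlt-8 (log2 change 2.12 ± 0.16, adjusted p = 1.25e-06) and mlt-10 (log2 change 1.08 ± 0.09, adjusted p = 2.17e-06). The matrix gene noah-2 followed (log2 change 1.11 ± 0.10, adjusted p = 2.47e-06). The genes lin-42 (log2 change 1.57 ± 0.15, adjusted p = 2.99e-06), lin-29 (0.81 ± 0.17, adjusted p = 0.00203) and grh-1 (0.43 ± 0.13, adjusted p = 0.0147) also rose. So did lrp-1, nekl-3 and noah-1. The moulting gene mlt-9 rose too (log2 change 2.12 ± 0.26, adjusted p = 2.55e-05, and 2.47 without DMSO replicate 6). The receptor gene nhr-23, a regulator of moulting, averaged 25.4 ± 1.03 FPKM in TM libraries and 26.5 ± 0.889 FPKM in DMSO libraries, and did not pass (adjusted p = 0.169). Nor did nhr-25, bed-3, blmp-1, myrf-1, elt-3 and nekl-2.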

How the data were processed

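The deposited table holds, per the file headers, raw read counts and FPKM values of the authors for 24238 genes in 12 libraries. Reads were trimmed with cutadapt 1.9, aligned with HISAT2 2.2.1 and quantified with StringTie, per the submitters' processing notes. For the counting tool and genome build, the sources used here give no name. Of the gene identifiers 24232 matched WBcel235, with 97.0% of starts equal, and coordinates are given in that build. Total counts per library ran from 61432401 to 67068328.

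The 11535 genes whose FPKM averaged 1 or more were tested with edgeR 4.0.16 in R 4.3.3: TMM scaling, treatment as the only term, robust dispersions, a two-sided quasi-likelihood F test and Benjamini-Hochberg adjustment over all of them. The SE is the size of the log2 change divided by the square root of F. Alternatives used limma 3.58.1, DESeq2 1.42.0, other filters and scalings, a loess correction for exon length, a replicate block and fewer libraries. The script was tested on simulated data. Ratios of FPKM were compared by exact permutation in scipy 1.17.1.

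Named members were the 4 with the smallest p and the 2 with the highest mean FPKM in each of wrt, grd, grl and ptr, those that fell, and hog-1, qua-1, ptc-1 and ptc-3. Other members were named after their values had been seen. Members, lists and tests were chosen with earlier results of these data known.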

Additional observations from a re-analysis of the deposited data

Results flagged for a closer look

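Among 48 groups of 6 libraries, those of the 24 named members in TM and DMSO, 5 held a library far from the others by Dixon's criterion. For independent groups chance gives about 1 in 20. These groups share the same libraries, and 4 of the 5 were DMSO replicate 6, so that rate is no direct measure here. DMSO replicate 6 was the highest of its group for wrt-6, with 0.953 FPKM and the next library at 0.349. It was also the highest for grl-7, with 3.11 FPKM and the next at 1.89, and for grl-16, with 13.4 FPKM and the next at 4.99. The same library was the lowest of its group for ptr-24, with 12.5 FPKM and the next at 16.3. TM replicate 5 was the lowest of its group for ptc-1, with 97.0 FPKM and the next at 118. Without DMSO replicate 6 the changes of wrt-6, grl-7, grl-16 and ptr-24 were 3.28, 2.90, 3.68 and -0.17 on the log2 scale. Without TM replicate 5 that of ptc-1 was -0.24.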

How the results depend on the processing

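Under all 23 alternatives 2 members fell, and 23 to 47 rose. The lowest count, 23 of 38, came with limma on quantile-normalized values, where 1933 of 11535 genes rose and 2945 fell. The highest, 47 of 80, came with no filter, where 15.5% of 24238 genes rose and 7.78% fell. With the replicate number as a block 32 rose and 2 fell, as without it. Same-numbered libraries correlated between -0.38 and 0.26, and 1 of 6 correlated best with its own number, so no pairing by number was seen. With so few libraries this check cannot exclude one. With limma on quantile-normalized values 3 ptr genes rose, the median change of members was 0.59, 18 members had TM all above DMSO, 1 partner rose and 2 fell, 7 moulting and epidermal genes rose and 3 fell, and 2945 of all genes fell. In that setting wrt-5 turned to -0.14, and 1933 of all genes rose. With the 10-count filter 7 wrt, 10 grd and 5 partner genes rose, and with no filter 7, 11 and 5. With limma on log2(FPKM + 1) the median was 0.79. Without DMSO replicates 2 and 6 and TM replicate 5 it was 1.01, 2832 of all genes and 1 partner fell, and 2 members had TM all below DMSO, as with median-ratio scaling and length correction. Leaving out 1 library in turn gave 1 to 2 such members, 0 to 1 fallen partners and a grd-10 to grd-13 log2 ratio of 0.23 to 0.67. With DESeq2 1 moulting or epidermal gene fell. The causes were not tested, except that the other filters test more genes. Groups were not compared for overlap under DESeq2, limma on log2(FPKM) values or the block. Of 16 members under 10 counts a library 1, grd-8, was called with no filter, and 15 were not called at this depth.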
